A study of Homo sapiens with 54 samples.

Results

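The effect of ionizing radiation on gene expression was compared between harvest at 24 h and at 2 h in NCI-H460, a cell line established from a human lung tumour of the large cell type. For each gene the quantity was the radiation effect at 24 h (Radiation_24h minus Control_24h) minus the radiation effect at 2 h (Radiation_2h minus Control_2h), on the log2 scale. It is called the time difference here. It used 12 of the 54 arrays of the study, 3 in each of the 4 groups, and was tested in 18417 genes, of which 2396 were called. A gene was called at a Benjamini-Hochberg adjusted p under 0.05 in limma, and all adjusted p-values here come from that fit. The irradiated groups had received 6 Gy, and the control groups neither radiation nor any other agent. All 4 groups were kept without serum and carried no pretreatment. Further groups of the study had received 5 uM nicotine, or smoke extract holding as much nicotine, 2 h before radiation, or 1 uM cisplatin in place of radiation. A single cell line was used. Which plate held which culture is not known here, so plate could not be tested. The labels call the 3 samples of a group biological replicates. Where separate cultures are not described, p-values measure only the spread between samples within groups, pooled over all 54 arrays.

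Ionizing radiation breaks DNA strands, and the damage kinases ATM and ATR then stabilize the transcription factor p53. p53 switches on inhibitors of the cell cycle, repair and death genes, and also its own antagonists such as MDM2. Among its targets is p21, which blocks cyclin-dependent kinases. The RB family proteins and the DREAM complex then repress genes of DNA replication through E2F sites and genes of mitosis through CHR elements. Histone genes of the replication-dependent clusters are transcribed mainly in S phase.

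The epithelial markers stood at mean levels of 8.22 to 8.38 on the 12 arrays (8 genes, list mean per array), and 0 of the 8 were called for the time difference. Means over the marker lists of leukocytes, fibroblasts and endothelium lay between 5.42 and 5.83. Olfactory receptors, a family with little expression outside the nose, gave list means of 4.61 to 4.76 at 24 h after radiation and 4.61 to 4.67 in 24 h controls, against 4.53 to 4.60 at 2 h after radiation and 4.53 to 4.57 in 2 h controls. Of the 341 olfactory receptors 0 were called for the time difference by limma. Correlations between arrays of a group were 0.9878 to 0.9961. Replicate 3 of the irradiated cells at 24 h stood apart for several genes below, and some of the results are also given without it.

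Radiation reached far more genes by 24 h than at 2 h. At 24 h, 1850 genes were higher (10.0% of those tested) and 2025 were lower (11.0%). At 2 h, 25 genes were higher (0.136%) and 31 were lower (0.168%). The time difference was called higher for 1117 genes (6.07%) and lower for 1279 genes (6.94%), and its median over all genes was 0.03. The bar for a call was not the same at both times, since the largest unadjusted p called was 0.000151 at 2 h and 0.0105 at 24 h. With one adjustment over the 3 contrasts together, 274 genes were called at 2 h. Replicate 3 of the irradiated cells at 2 h weighed on this count, which was 148 without it and 56 with it. Leaving out either of the other irradiated arrays at 2 h, or any control array at 2 h, gave 27 to 37.

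**Figure D1:**
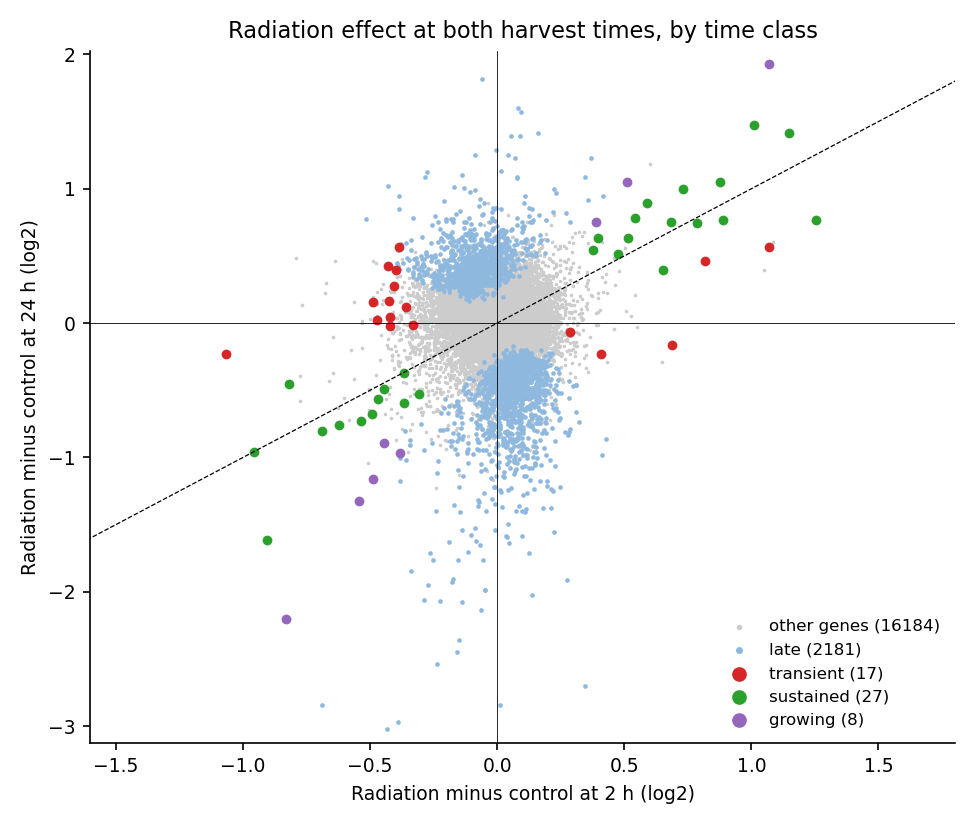
Radiation minus control at 24 h (vertical axis, log2) against radiation minus control at 2 h (horizontal axis, log2) for 18417 genes, each point 1 gene, coloured by time class. The 2181 late genes form columns above and below 0 on the 2 h axis, and the 27 sustained genes lie along the dashed line of equal effects.

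Genes were sorted by the calls of these 3 contrasts. A transient gene was called at 2 h and for the time difference, with an effect at 24 h that was smaller or of the other sign. A sustained gene was called at both times in the same direction and not for the time difference. A growing gene was called at both times and for the time difference, with the larger effect at 24 h. A late gene was called at 24 h and for the time difference but not at 2 h, with the larger effect at 24 h. There were 17 transient, 27 sustained, 8 growing and 2181 late genes. A further 1837 genes were called in at least 1 contrast but fell outside these classes, 1643 of them called at 24 h alone, 180 for the time difference alone and 4 at 2 h alone (BLOC1S2, TET1, TRIAP1 and ZNF280C). The other 10 of these were called at 24 h and for the time difference but had the larger effect, of opposite sign, at 2 h (ARID2, ATXN2, DNM1P46, FRY, HSPG2, LIAT1, NCOA2, PLA2R1, SOX6 and ZMYND8). These 2 short lists are given in full and were not picked by the naming rule. The last genes inside the 2 h threshold were ESPL1 and PRR5L, both with an adjusted p of 0.0476, and RPS27L with 0.0497. The first outside it were KIF18B, PLEKHH1 and PDE7B, each with 0.0511.

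The transient class held 5 genes that rose at 2 h and 12 that fell. TNFSF9, which encodes the ligand of the costimulatory receptor 4-1BB, read 8.37, 8.43 and 8.69 in irradiated cells and 8.57, 8.68 and 8.72 in control cells at 24 h. At 2 h it read 9.51, 9.60 and 9.40 in irradiated cells and 8.79, 8.87 and 8.80 in control cells. The 3 irradiated arrays at 2 h thus stood above all others, and the effect was 1.61-fold there (log2 0.69, SE 0.11, adjusted p = 0.00015), with a time difference of -0.85 (SE 0.16, adjusted p = 0.000119). PLK3, a stress-responsive Polo-like kinase, was 1.48-fold higher at 24 h and 2.10-fold higher at 2 h, with a time difference of -0.51 (SE 0.13). AEN, a p53-induced nuclease, was 1.38-fold higher at 24 h and 1.76-fold higher at 2 h. KLF11 and PLD6 were not called at 24 h (log2 -0.23 and -0.07) but were at 2 h (log2 0.41 and 0.28). AEN was sustained rather than transient without replicate 3 of either control group or replicate 2 of the irradiated cells at 2 h.

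WEE1, the kinase that holds CDK1 inactive before mitosis, had the deepest transient drop. It read 8.71, 8.70 and 8.40 in irradiated cells against 8.87, 8.82 and 8.80 in control cells at 24 h, and 7.43, 7.55 and 7.77 against 8.54, 8.68 and 8.73 at 2 h. The groups did not overlap at either time. The effect was -0.23 at 24 h (adjusted p = 0.38), which was not called, and -1.07 at 2 h (SE 0.16, adjusted p = 5.8e-05), 0.477 of the control level. The time difference was 0.84 (SE 0.23, adjusted p = 0.00995). WEE1 kept the transient class in 12 of 14 other settings. It lost the class with the mean of all rows per gene and with the mean over the 3 pretreatments. G2E3, a G2/M-phase ubiquitin ligase, had an effect of 0.15 at 24 h that was not called, and fell by 0.49 on the log2 scale at 2 h.

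Among the transient genes, 4 were called at both times in opposite directions: FLRT2, ATXN7L1, PRR5L and ZSCAN31. All 4 were thus still called at 24 h, so transient here does not mean a return to the control level. FLRT2, a membrane protein of cell adhesion and axon guidance, read 10.15, 10.29 and 10.29 in irradiated cells and 9.68, 9.63 and 9.72 in control cells at 24 h. At 2 h it read 8.83, 8.94 and 9.04 in irradiated cells and 9.37, 9.37 and 9.22 in control cells. Its groups were separated both times, with an effect of 0.57 (SE 0.08) at 24 h and -0.39 (SE 0.08) at 2 h. ATXN7L1 had effects of 0.42 at 24 h and -0.43 at 2 h, and PRR5L 0.40 and -0.40 in the same order. The rest of the falling transient genes were BRD8, GRAMD1B, HOXB6, MRTFB, NFIB and SHH. Class membership here leaned on single arrays. Over the 12 fits that left out 1 array, PRR5L kept its class in 2, MRTFB in 5 and ZSCAN31 in 6. FLRT2 and ATXN7L1 kept it in 8 each, and TNFSF9, PLK3 and WEE1 in all 12. FLRT2 turned late without replicate 1 or 2 of either 2 h group.

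**Figure D2:**
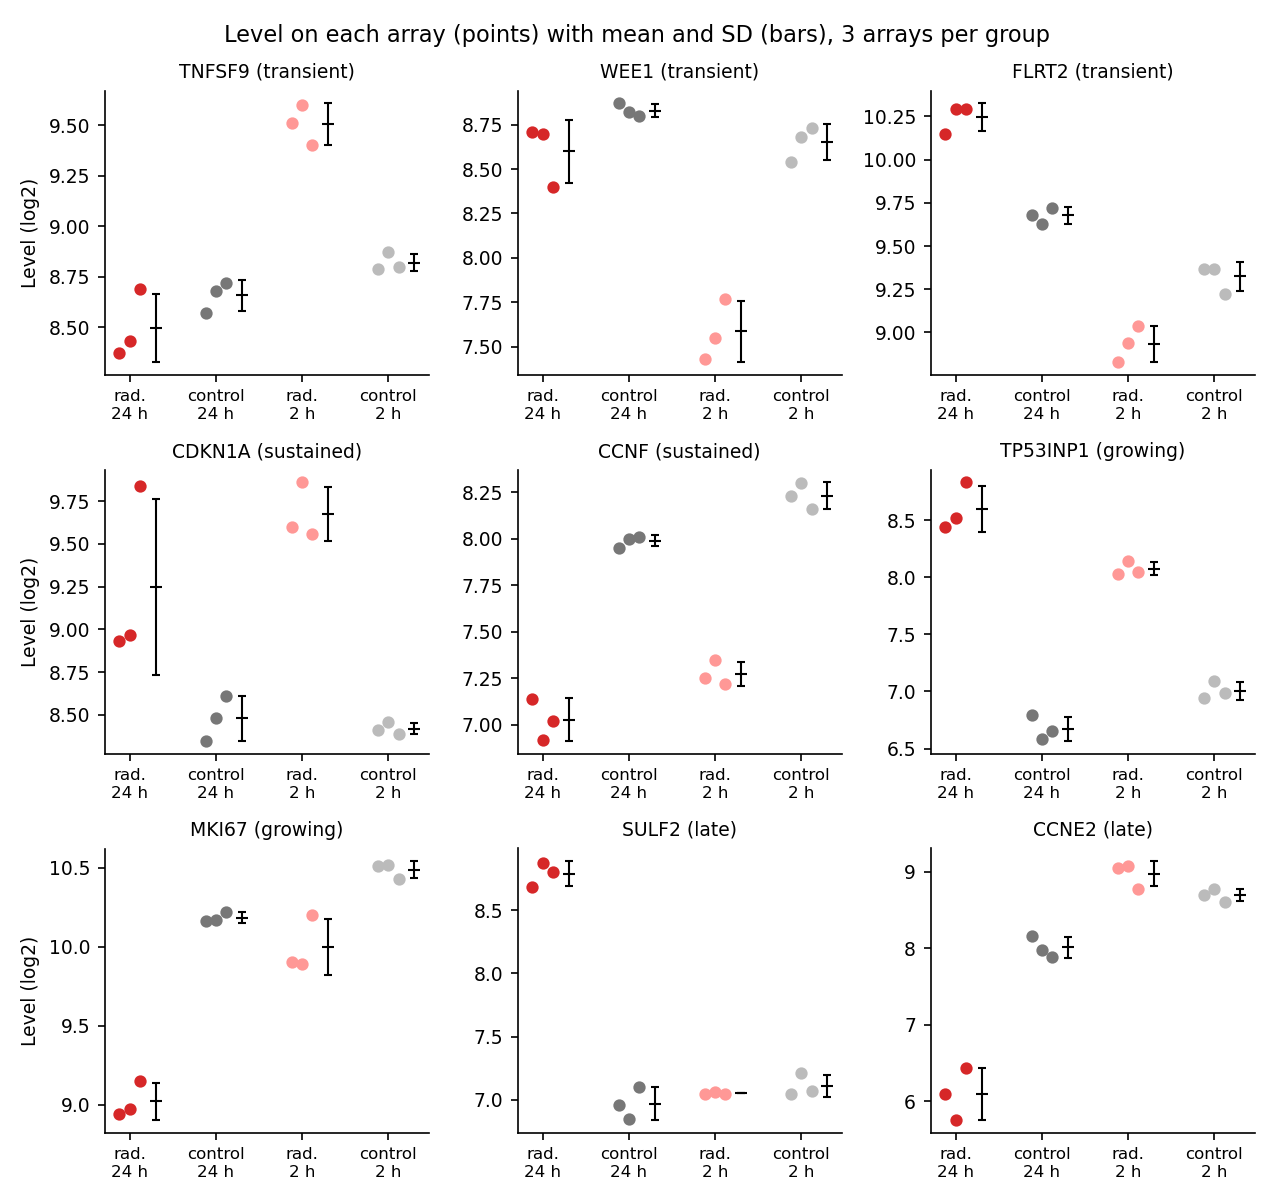
Deposited log2 level of 9 genes on each array (points), with mean and SD of the 3 arrays (bar at the right of each group), for irradiated and control cells at 24 h and then at 2 h. The irradiated arrays of TNFSF9 and WEE1 leave the control level at 2 h and lie close to it at 24 h, those of CCNF lie below control at both times, and those of SULF2 leave it at 24 h.

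Of the 15 sustained genes that rose, 11 were on the list of p53 targets, and of the 12 that fell, 3 were on the list of G2/M and mitosis genes. Of the 18417 genes tested, 70 were on the first list and 54 on the second. Both lists were drawn up with earlier results of these data known. Among the rising ones GADD45A, a stress sensor that binds PCNA and CDK1, was highest at 2 h after CDKN1A. GADD45A read 8.12, 7.92 and 8.08 in irradiated cells against 6.73, 6.52 and 6.63 in control cells at 24 h, and 8.09, 8.19 and 8.09 against 6.90, 7.08 and 6.94 at 2 h. The fold was 2.66 at 24 h and 2.21 at 2 h, and the time difference was 0.27 with a 95% interval of -0.05 to 0.58. Other rising members were FAS, the death receptor (2.07-fold at 24 h and 1.84-fold at 2 h), SESN1 and SESN2, the stress-induced sestrins (2.77-fold and 2.00-fold at 24 h), PPM1D, the phosphatase that switches off p53 signalling (1.70-fold at 24 h), and PHLDA3, an AKT inhibitor (1.68-fold at 24 h). MDM2, the ubiquitin ligase that degrades p53, was 1.86-fold higher at 24 h and 1.51-fold higher at 2 h, and the interval of its time difference, -0.001 to 0.609, allowed a larger effect at 24 h. SESN1 and SESN2 were 2.01-fold and 1.66-fold higher at 2 h. The intervals of SESN1, 0.10 to 0.83, and SESN2, 0.02 to 0.52, held only larger effects at 24 h, though neither time difference was called. SESN1 kept the sustained class in 9 of 14 other settings and SESN2 in 11. A time difference that was not called does not show that both effects were equal.

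CDKN1A, which encodes p21, rested on 1 array. It read 8.93, 8.97 and 9.84 in irradiated cells against 8.35, 8.48 and 8.61 in control cells at 24 h, and 9.60, 9.86 and 9.56 against 8.41, 8.46 and 8.39 at 2 h. The third irradiated array at 24 h stood at the 2 h level and the other 2 lay between that level and the controls. With all arrays CDKN1A was sustained, at 1.70-fold at 24 h and 2.39-fold at 2 h, with a time difference of -0.49 (SE 0.22, adjusted p = 0.157). Without replicate 3 of the irradiated cells at 24 h its time difference was -0.785 (adjusted p = 0.00328) and its class transient. TROAP, a spindle-associated protein, moved to the transient class in the same way.

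The 12 sustained falling genes were ARHGEF39, ASPM, BORA, CCNF, CDCA2, FAM83D, GTSE1, H2AC15, PIF1, PLK1, TICRR and TROAP. CCNF, cyclin F of the SCF ubiquitin ligase, read 7.14, 6.92 and 7.02 in irradiated cells against 7.95, 8.00 and 8.01 in control cells at 24 h, and 7.25, 7.35 and 7.22 against 8.23, 8.30 and 8.16 at 2 h. Irradiated and control arrays were far apart at both times, at 0.514 of the control level at 24 h and 0.515 at 2 h. The interval of its time difference was -0.26 to 0.25, and CCNF stayed sustained in all 12 fits that left out 1 array. Of the other falling ones, BORA kept the class in 11 of these fits, ASPM in 8, PLK1 and H2AC15 in 7 each and CDCA2 in 6. PLK1, the Polo-like kinase that drives mitotic entry, fell to 0.695 of control at 24 h and 0.807 at 2 h. BORA, which activates PLK1 through Aurora A, fell to 0.572 of control at 24 h and 0.620 at 2 h. H2AC15, a histone gene, fell by 1.61 on the log2 scale at 24 h and by 0.91 at 2 h.

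The growing class held 3 rising genes, DDB2, RNF19B and TP53INP1, and 5 falling ones, CDCA3, ESPL1, H1-3, HJURP and MKI67. TP53INP1, a p53 target linked to cell death and autophagy, read 8.44, 8.52 and 8.83 in irradiated cells against 6.79, 6.58 and 6.65 in control cells at 24 h, and 8.03, 8.14 and 8.05 against 6.94, 7.09 and 6.99 at 2 h. No irradiated array overlapped a control array, and the effect was 3.80-fold at 24 h and 2.10-fold at 2 h, with a time difference of 0.86 (SE 0.20, adjusted p = 0.002). DDB2, a sensor of ultraviolet damage, was 2.07-fold higher at 24 h and 1.42-fold higher at 2 h. MKI67, the proliferation antigen, read 8.94, 8.97 and 9.15 in irradiated cells against 10.16, 10.17 and 10.22 in control cells at 24 h, and 9.90, 9.89 and 10.20 against 10.51, 10.52 and 10.43 at 2 h. That was 0.447 of the control level at 24 h and 0.712 at 2 h. HJURP, the chaperone that loads the centromeric histone, was at 0.400 of control at 24 h and 0.686 at 2 h. RNF19B and CDCA3 kept the class in 3 of the 12 fits without 1 array, and ESPL1 in 2.

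Late genes made up most of the response, with 965 higher and 1216 lower at 24 h, 655 of them changed by over 1.5-fold. Their median effect at 24 h was 0.42 among the higher and -0.52 among the lower, against -0.09 and 0.06 at 2 h. Over both directions 1905 of the 2396 genes called for the time difference had effects of opposite sign at the 2 times, and 4 of these were called at both. Over all genes tested 9831 of 18417 had opposite signs, and a choice by the difference of the 2 effects itself favours opposite signs. The time difference equals the change in irradiated cells minus that in controls. Between the harvest times, 6408 genes changed in irradiated cells (34.8% of those tested) and 354 in untreated cells (1.92%). The untreated count was 146 to 179 when a 2 h control array or replicate 2 or 3 of the 24 h controls was left out. Of the 2396 genes, 2326 were called in irradiated cells over time, 143 in untreated cells, 24 in untreated cells alone and 46 in neither.

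SULF2, which removes sulfate groups from heparan sulfate, had the highest time difference. It read 8.68, 8.87 and 8.80 in irradiated cells against 6.96, 6.85 and 7.10 in control cells at 24 h, and 7.05, 7.06 and 7.05 against 7.05, 7.21 and 7.07 at 2 h. Only the 3 irradiated arrays at 24 h left the common level, 3.52-fold above control, with a time difference of 1.87 (SE 0.10, adjusted p = 3.9e-18). ACTA2, smooth muscle actin, read 9.96, 9.77 and 9.82 against 8.23, 8.26 and 8.25 in control cells at 24 h, a 3.04-fold rise, with a time difference of 1.52. DSC3, a desmosomal cadherin, was 2.98-fold higher at 24 h, SPATA18, a p53 target of mitochondrial quality control, 2.67-fold, and DGKA, a diacylglycerol kinase, 2.62-fold. TXNIP, the inhibitor of thioredoxin, was 2.38-fold higher at 24 h, and its level in control cells was 9.47 at 24 h and 10.09 at 2 h. NRG1, a ligand of ERBB receptors, had effects of 1.08 at 24 h and -0.28 at 2 h, the second not called.

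Of the 70 p53 targets measured, 41 were higher and 1 was lower at 24 h, and 16 were higher at 2 h, against the shares of all genes above. The median effect of the list was 0.45 at 24 h and 0.19 at 2 h, beside 0.033 and 0.005 over all genes. Its members spread over the classes, with 2 transient, 11 sustained, 2 growing and 15 late genes. In the group listed as secreted and membrane proteins, 0 of 15 were called at 2 h and 7 were late: SULF2, ACTA2, TRIM22, ANKRA2, PLXNB2, PLXNB3 and NOTCH1. ACTA2, TRIM22 and ANKRA2 encode proteins inside the cell, so the heading does not describe them. PLXNB2, a semaphorin receptor, was 2.12-fold higher at 24 h with an effect of 0.08 at 2 h. Of 11 arrest genes 4 were sustained, and of 17 apoptosis genes 3. CCNG1 and CCNG2, the G-type cyclins, were late at 1.41-fold and 1.75-fold, as was XPC, which recognizes bulky lesions, at 1.93-fold. XPC kept that class in 4 of 14 other settings and in 11 of the 12 fits that left out 1 array. SFN, the 14-3-3 sigma protein of the G2 checkpoint, went the other way, late and at 0.740 of the control level at 24 h.

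**Figure D3:**
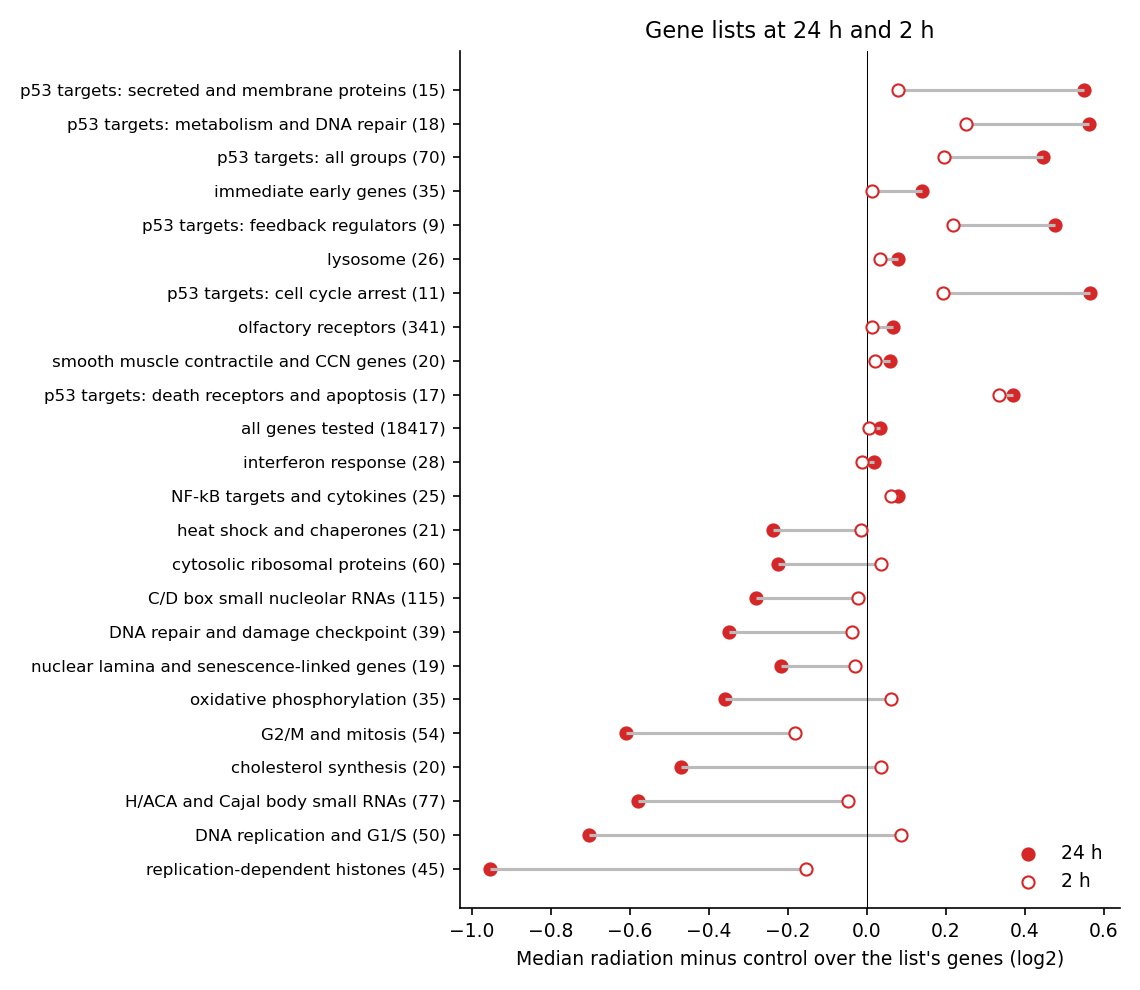
Median radiation minus control (log2) over the genes of each list at 24 h (filled) and 2 h (open), ordered by the median time difference, with the number of genes measured in parentheses. The histone list has the lowest median at 24 h (-0.95), followed by replication (-0.70), G2/M (-0.61) and H/ACA genes (-0.58), and the p53 lists lie above 0 at both times.

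Genes of DNA replication and the G1/S transition fell late and together. Of 50 measured, 41 were lower and 0 higher for the time difference, beside 6.94% and 6.07% over all genes. All 41 were in the late class, and 0 of the 50 were called at 2 h by limma. The median effect was -0.70 at 24 h and 0.09 at 2 h. CCNE2, cyclin E2, which starts S phase with CDK2, read 6.10, 5.76 and 6.44 in irradiated cells against 8.16, 7.98 and 7.89 in control cells at 24 h, and 9.05, 9.08 and 8.78 against 8.70, 8.77 and 8.61 at 2 h. Every irradiated array lay below the controls at 24 h and above them at 2 h, with an effect of -1.91 (SE 0.19) at 24 h and 0.28 at 2 h (adjusted p = 1), and a time difference of -2.19 (SE 0.27, adjusted p = 7.8e-08). RRM2, the ribonucleotide reductase subunit that limits nucleotide supply, was at 0.322 of control at 24 h, and CLSPN, claspin, which passes the replication stress signal to CHK1, at 0.385. UNG, the uracil DNA glycosylase, was at 0.500 and CDC6, which licenses origins, at 0.611. In 24 h controls 11 of the 50 genes were lower than in 2 h controls, so part of the list also declined without radiation. In these bulk samples, fewer cells in a cell cycle phase and less RNA per cell cannot be told apart.

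Genes of G2/M and mitosis fell at both times in part. Of 54 measured, 46 were lower at 24 h and 6 at 2 h, and 24 were lower for the time difference, with 1 higher (WEE1). The shares of all genes called lower were 11.0% at 24 h, 0.168% at 2 h and 6.94% for the time difference. The list held 22 late, 3 sustained, 2 growing and 1 transient gene. The median effect was -0.61 at 24 h and -0.18 at 2 h. AURKB, the kinase of the chromosomal passenger complex, read 8.05, 7.78 and 7.98 in irradiated cells against 9.43, 9.43 and 9.57 in control cells at 24 h, and 9.41, 9.39 and 9.24 against 9.38, 9.55 and 9.51 at 2 h. It was at 0.345 of control at 24 h, while the 2 h effect of -0.14 was not called. SPC25 of the NDC80 kinetochore complex was at 0.308 and MAD2L1 of the spindle checkpoint at 0.443 at 24 h. CCNB1, cyclin B1, fell by 0.52 on the log2 scale at 24 h, and its time difference of -0.30 (SE 0.17) was not called. CKS2, a small subunit that binds cyclin-dependent kinases, varied widely between irradiated arrays at 24 h, at 9.76, 8.74 and 10.82 against 11.83, 11.54 and 11.66 in control cells.

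Replication-dependent histones had the lowest median effect at 24 h of the lists. Of 45 measured, 25 were lower and 0 higher for the time difference, beside 6.94% and 6.07% over all genes. The list's median effect was -0.95 at 24 h and -0.15 at 2 h. H2BC14, an H2B gene, read 9.29, 9.18 and 9.23 in irradiated cells against 12.19, 12.22 and 12.19 in control cells at 24 h, and 11.81, 11.94 and 11.76 against 12.16, 12.31 and 12.22 at 2 h. The arrays of a group lay within 0.2 of each other, and irradiated cells were at 0.128 of control at 24 h, with a 2 h effect of -0.39 just outside the threshold (adjusted p = 0.053). H3C12, an H3 gene, read 6.26, 6.20 and 6.40 against 9.44, 9.35 and 9.14 at 24 h, 0.123 of control. H1-5, a linker histone, was at 0.140 of control at 24 h. Histone genes share much of their sequence, so the signal of single genes is uncertain where probes could match several, and H4C14 and H4C15 had identical values.

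The promoters of these 3 groups are shown because their members moved together, with sequences from RefSeq (GRCh38.p14), as the last 120 bases before the gene start, 5′ to 3′. Promoters were available for 14239 of the 18417 genes. The genes shown were picked after values were seen, among genes whose 120 bases held the motif. They were chosen for a low time difference (for CCNF, the largest smaller effect). They need not be the lowest with the motif in each list. The 250 bases before the start were searched on both strands. Capitals mark the CHR letters TTTGAA or their reverse complement in 3 mitotic genes. The sustained falling histone gene H2AC15 also held these letters in its 120 bases and is not shown.
CCNF, chr16:2429327-2429446, plus strand: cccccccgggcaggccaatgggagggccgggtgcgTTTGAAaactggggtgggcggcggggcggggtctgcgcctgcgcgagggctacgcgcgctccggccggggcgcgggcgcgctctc
CKS2, chr9:89311075-89311194, plus strand: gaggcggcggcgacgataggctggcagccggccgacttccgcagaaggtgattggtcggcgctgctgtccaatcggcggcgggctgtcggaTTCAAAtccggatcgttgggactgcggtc
DLGAP5, chr14:55191586-55191705, minus strand: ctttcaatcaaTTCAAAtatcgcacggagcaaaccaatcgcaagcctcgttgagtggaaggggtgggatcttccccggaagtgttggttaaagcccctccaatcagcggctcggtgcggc
The letters TTTGAA were found in 7 of 8 promoters of sustained falling genes (87.5%), in 55.6% of the 45 G2/M promoters, in 9.26% of the 972 late falling ones and in 10.6% of promoters of all genes tested. DLGAP5, a spindle protein, had a time difference of -0.739. In the next pair capitals mark TTCCCGC or its reverse complement, the core of an E2F site.
UHRF1, chr19:4909381-4909500, plus strand: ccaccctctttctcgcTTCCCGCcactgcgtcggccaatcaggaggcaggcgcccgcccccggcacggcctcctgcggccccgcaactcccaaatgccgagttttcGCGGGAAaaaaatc
GINS2, chr16:85688955-85689074, minus strand: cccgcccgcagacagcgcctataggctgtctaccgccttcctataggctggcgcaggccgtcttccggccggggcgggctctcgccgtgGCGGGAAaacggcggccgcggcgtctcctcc
TTCCCGC was found in 33.3% of the 42 promoters of replication genes, in 13.6% of late falling ones, in 0 of 8 sustained falling ones and in 7.78% over all genes. UHRF1, which reads methylated DNA at the replication fork, had a time difference of -1.285, and GINS2, a subunit of the replicative helicase, of -1.281. In the last pair capitals mark CCAAT, the core of an NF-Y site.
H2BC14, chr6:27814902-27815021, plus strand: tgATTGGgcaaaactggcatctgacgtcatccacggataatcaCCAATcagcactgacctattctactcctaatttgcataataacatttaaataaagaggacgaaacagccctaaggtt
H2BC9, chr6:26251494-26251613, plus strand: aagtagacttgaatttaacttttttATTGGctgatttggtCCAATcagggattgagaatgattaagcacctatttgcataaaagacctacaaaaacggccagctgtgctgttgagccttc
CCAAT was found in 90.0% of the 40 histone promoters, in 77.8% of the G2/M ones, in 8 of 8 sustained falling ones, in 32.2% of the 779 late rising ones and in 34.4% over all genes. The letters TATAAA stood in 70.0% of histone promoters and in 8.6% over all genes. A match is a description of the letters and does not show binding.

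Small RNAs of the nucleolus and Cajal body were also lower at 24 h. Of 77 H/ACA and Cajal body RNAs, of which the H/ACA type guides pseudouridylation, 30 were lower and 0 higher for the time difference. The median effect of this list was -0.58 at 24 h and -0.05 at 2 h. Of 115 C/D box RNAs, which guide methylation of ribosomal RNA, 25 were lower and 1 higher. The shares over all genes were 6.94% lower and 6.07% higher. SNORA20 read 5.47, 4.95 and 6.69 in irradiated cells against 8.13, 8.34 and 7.99 in control cells at 24 h, and 7.99, 8.45 and 7.79 against 8.42, 8.23 and 8.05 at 2 h. The third irradiated array at 24 h was nearest to the controls. VTRNA1-1, a vault RNA, read 2.91, 2.88 and 4.15 against 5.71, 6.33 and 6.00 at 24 h, and RNU5D-1, a U5 spliceosomal RNA, 2.86, 3.34 and 5.76 against 6.55, 7.00 and 6.93. Levels that low cannot be told from background here. Without replicate 3 of the irradiated cells at 24 h, 32 H/ACA and 28 C/D box RNAs were lower.

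Further lists held genes of metabolism, to be read beside the 6.94% of all genes called lower for the time difference. Of 20 genes of cholesterol synthesis 14 were lower for the time difference, all late, with a median effect of -0.47 at 24 h and 0.04 at 2 h. EBP, a sterol isomerase, was at 0.482 of control at 24 h, MVK, mevalonate kinase, at 0.639 and FDPS, farnesyl diphosphate synthase, at 0.661. Of 35 oxidative phosphorylation genes 17 were lower and 0 higher. COX7B, a cytochrome oxidase subunit, read 7.27, 7.16 and 8.07 in irradiated cells against 8.98, 8.61 and 8.55 in control cells at 24 h, with the third irradiated array nearest to the controls. Of 60 cytosolic ribosomal proteins 18 were lower and 1 higher. That count depended on the arrays, at 4 without replicate 2 and 25 without replicate 3 of the irradiated cells at 24 h. For the oxidative phosphorylation list the count was 9 without replicate 2 of that group and likewise 9 without replicate 1 of the irradiated cells at 2 h. Without replicate 3 of the irradiated cells at 24 h that count was 18. Of 39 DNA repair genes 15 were lower for the time difference. LMNB1, lamin B1 of the nuclear envelope, was at 0.590 of control at 24 h.

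Over all genes 6.07% were called higher and 6.94% lower for the time difference, 13.0% in either direction. Lists of signalling genes held calls near that share. Among 35 immediate early genes 3 were higher and 1 lower for the time difference, among 25 NF-kB targets and cytokines 2 and 1, and among 28 interferon response genes 2 and 1. TNFAIP3, which restrains NF-kB signalling, was 1.51-fold higher at 24 h and was not called at 2 h (-0.13). CXCL8, a neutrophil chemokine, read 10.14, 10.22 and 10.47 in irradiated cells against 10.87, 10.74 and 10.90 in control cells at 24 h, and 9.93, 9.93 and 9.90 against 10.03, 9.94 and 9.81 at 2 h. Control cells at 24 h were the highest of its 4 groups. The other lists held 2 to 7 calls each. Heat shock genes had 2 higher and 5 lower of 21, lysosomal genes 4 and 3 of 26, lamina and senescence-linked genes 1 and 5 of 19, and contractile genes 1 and 1 of 20.

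The length of the gene went with the direction of the time difference. Among 16902 protein-coding genes, 20.2% of the 650 that span over 320 kb were called higher and 0.615% lower. Of the 2220 that span up to 5 kb, 1.22% were called higher and 8.69% lower. The median time difference was 0.155 in the longest genes and -0.007 in the shortest. In the longest genes the median effect was 0.12 at 24 h and -0.045 at 2 h. The mean level of genes over 160 kb minus that of genes up to 10 kb was 0.156, 0.193 and 0.193 in irradiated cells and 0.021, -0.001 and 0.047 in control cells at 24 h. At 2 h it was -0.095, -0.061 and -0.012 in irradiated cells and 0.025, 0.025 and -0.016 in control cells. Irradiated arrays thus stood highest at 24 h, and at 2 h their range met that of the controls. Late rising genes had a median span of 83.9 kb and late falling ones 15.8 kb, and the 12 transient falling genes, among them FLRT2 and ATXN7L1, 92.6 kb, beside 24.5 kb over all genes. Across the 16902 genes, which are not independent replicates, the time difference correlated with log10 span at r = 0.224 in unpretreated cells, 0.211 with nicotine and 0.0662 with smoke extract, and the difference between these was not tested.

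**Figure D4:**
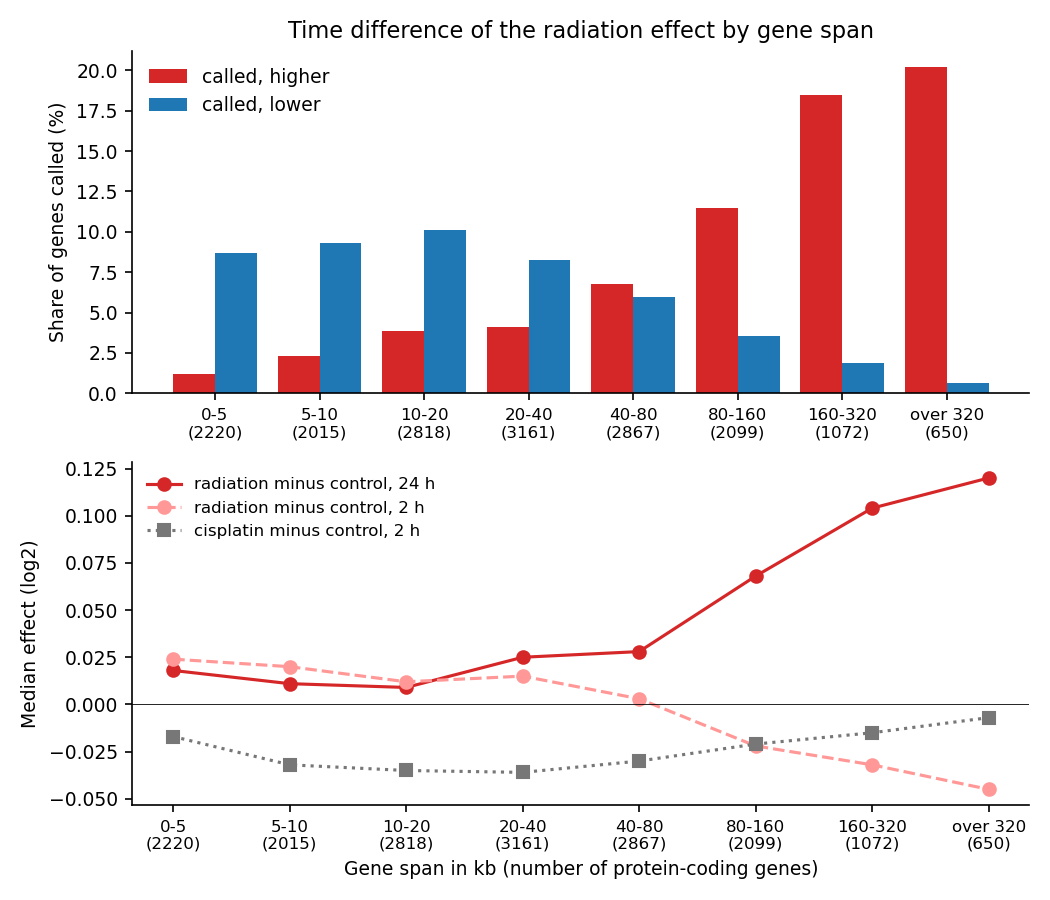
Upper panel: share of protein-coding genes called higher and lower for the time difference (%), by gene span in kb, with the number of genes in parentheses. Lower panel: median effect (log2) of radiation at 24 h, of radiation at 2 h and of cisplatin at 2 h by the same spans. The share called higher climbs to 20.2% and the share called lower falls to 0.615% in the longest genes.

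The same time difference was measured in cells pretreated with nicotine or smoke extract. The arrays of these cells did not enter the effects that sorted the genes, but shared the estimate of spread and the choice of rows. The time difference was called for 1256 genes in nicotine-pretreated cells (6.82%) and for 1274 in smoke-extract-pretreated cells (6.92%). Of the 2396 genes above, 2367 had the same sign with nicotine and 977 were called in that direction, with 0 called in the opposite one. With smoke extract 2097 had the same sign, 642 were called and 0 were called in the opposite direction. Over all genes the same sign was found in 13098 and 11681 of 18417. SULF2 had a time difference of 1.65 with nicotine and 1.18 with smoke extract, CCNE2 of -2.05 and -2.35, and H2BC14 of -2.26 and -2.86. FLRT2 was called in both, at 0.88 and 0.52. Transient genes had the same sign in 17 of 17 with nicotine (8 called) and in 12 of 17 with smoke extract (5 called). Of the 77 H/ACA and Cajal body RNAs 2 were lower with nicotine and 3 with smoke extract, and of the 60 ribosomal proteins 0 and 1. Among all 18417 genes 564 were called lower with nicotine and 1029 with smoke extract. Whether those lists differed between pretreatments was not tested.

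**Figure D5:**
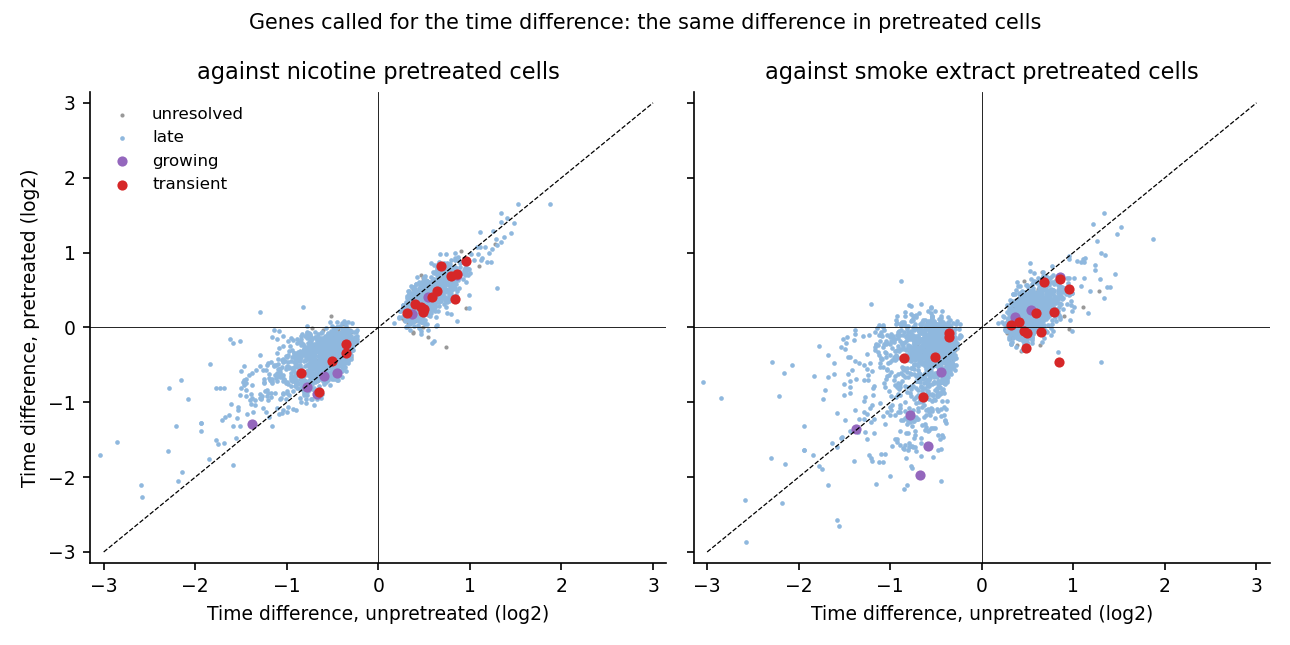
Time difference (log2) in nicotine-pretreated cells (left, vertical axis) and smoke-extract-pretreated cells (right) against that in unpretreated cells (horizontal axis), for 2396 genes, coloured by class. The dashed line marks equal values, and 2367 genes on the left and 2097 on the right share the sign.

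Set against nicotine-pretreated cells, the time difference was called for 0 genes (0%) by limma, with 405 at an unadjusted p under 0.05. The median SE of this comparison was 0.223, against 0.158 for the time difference, so 0 calls do not show equal courses. The 3 smallest p belonged to RNVU1-19, SCARNA16 and UBE2N. Against smoke-extract-pretreated cells 105 genes were called (0.570%), 99 of them higher in unpretreated cells. KIF20A, a mitotic kinesin, had a time difference of -0.45 in unpretreated and -2.05 in pretreated cells, a difference of 1.60 (adjusted p = 4.9e-08). TROAP had 0.37 and -1.02 in the same order, and CDC6 -0.85 and -2.16. KIF18B, a kinesin of spindle microtubules, had -0.14 and -1.44. WEE1 had 0.84 and -0.47, a difference of 1.31 (adjusted p = 0.044), and after smoke extract its effect was -0.93 at 24 h and -0.47 at 2 h. Lower in unpretreated cells were NPM3, a histone chaperone (-1.17 and -0.26), COX7A2L (-0.56 and 0.26) and HPCAL1 (-0.62 and 0.10), with the metallothionein family entries MT1P3 and MT1HL1.

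The course after radiation was also set against that after cisplatin, (Radiation_24h minus Cisplatin_24h) minus (Radiation_2h minus Cisplatin_2h), in which the control arrays cancel. It was called for 1258 genes (6.83%), 321 higher and 937 lower. SULF2 was highest at 1.44 (adjusted p = 9.1e-14), followed by DNAI3, CPS1-IT1, PLAC4 and C2orf66. H2BC14 was lowest at -2.25 (adjusted p = 1.5e-16), with CCNE2 at -2.19, FAM111B at -1.82 and H3C12 at -1.82 also among the lowest. VTRNA1-1 was among them too, but its level after radiation could not be told from background, so no value is given. TP53INP1 was not called, at 0.05, nor was CCNF, at -0.30. CDKN1A was called at -0.91 (adjusted p = 0.00616). The dose of cisplatin has no equivalent in dose of radiation, so this sets 2 given treatments side by side.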

How the data were processed

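RNA of 54 samples was measured on one-colour Affymetrix whole-transcript arrays, with 18 groups of 3 read from the titles. The authors used Affymetrix Power Tools 1.15.0, per the submitters' processing notes; the sources used here do not state how the signals were summarized and normalized. The deposited values are taken as log2, inferred from their range of 0.89 to 13.81, and depth has no counterpart on arrays, where the number of arrays limits the precision. Of 33297 rows, 19460 carried exactly 1 gene symbol in the platform annotation, and the row with the highest mean stood for each of 18417 genes. There were 0 unused sample columns. One limma 3.58.1 model (R 4.3.3) with 18 group means, 36 residual degrees of freedom and an intensity trend was fitted to all arrays, with two-sided p-values adjusted by Benjamini-Hochberg over all genes. It was also run on simulated data in which added effects stood at 24 h alone. That run could not exercise the transient, sustained and growing classes.

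The classes and the 26 gene lists (1168 memberships, 1119 measured) were chosen with earlier results of these data known. Named genes were the 10 highest and 10 lowest time differences, up to 8 per class and direction, up to 4 per list by difference and up to 4 by 2 h effect, the 5 largest each way (or the 3 smallest p) for pretreated cells and cisplatin, and 12 fixed genes such as CDKN1A and WEE1; names outside this rule were chosen after their values were seen. Gene spans and promoters came from RefSeq tables (GRCh38.p14). Same-numbered arrays did not deviate together (3 of 18 correlations over 0.1, range -0.218 to 0.175), so numbers were not taken as pairs. The alternatives changed 1 choice each: arrays fitted, variance trend, replicate block, level filter, rows, scaling, background covariate, array weights, adjustment, thresholds, pretreatments averaged and arrays left out.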

Additional observations from a re-analysis of the deposited data

Results flagged for a closer look

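The radiation effect differed between 24 h and 2 h in 2396 genes, by the test of the difference itself. The time difference differed between unpretreated and smoke-extract-pretreated cells in 105 genes, led by KIF20A. It differed between radiation and cisplatin in 1258 genes, led by H2BC14 and SULF2. Outside the genes tested, 691 table rows without a single gene symbol were called for the time difference in a fit of all rows, 507 of the 12083 rows with no symbol and 184 of the 1754 rows with several, and these rows are unnamed here.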

How the results depend on the processing

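The time difference was called for 1700 to 2858 genes when single arrays were left out, against 2396 in all, and late genes numbered 1529 to 2628; the highest of each came without replicate 3 of the irradiated cells at 24 h. Early classes were fragile: 27 to 148 genes were called at 2 h, 4 to 88 were transient, 18 to 37 sustained and 3 to 7 growing, and the 148 and 88 came without replicate 3 of the irradiated cells at 2 h, while leaving out any other 2 h array gave 27 to 37 calls at 2 h. Calls at 24 h numbered 2810 to 4250, and genes called in at least 1 contrast but outside the classes 1392 to 2206. The change over time in untreated cells was called for 146 to 406 genes, for 730 with the 12 arrays alone, 519 with quantile normalization, 610 with the covariate, 3568 and 3138 with the 2 kinds of array weights, 137 at an adjusted p under 0.01 and 36 past 1.5-fold. In pretreated cells the counts were 843 to 1888 with nicotine, the highest without replicate 3 of the unirradiated cells at 24 h, and 960 to 1315 with smoke extract. The test against smoke extract gave 66 (without replicate 2 of the smoke extract cells at 2 h) to 323 (without replicate 3 of the irradiated cells at 24 h), and that against cisplatin 773 (without replicate 1 of the irradiated cells at 2 h) to 1718 (without replicate 3 of the irradiated cells at 24 h). Such fits leave 2 arrays in 1 group, assumed to vary like the others.

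Array weights changed the counts most. Limma's default weights ran from 0.121 to 71.849 and their estimation stopped before it converged. They gave 6040 genes for the time difference, 6676 at 24 h, 2008 at 2 h, 1096 transient, 279 sustained, 126 growing and 4270 late, with 5227 for nicotine, 8116 for smoke extract, 3 and 4317 against these pretreatments, and 9876 against cisplatin. A gene-by-gene estimate, added after seeing the data for that reason, had weights of 0.198 to 7.392 and gave 5735, 6314, 1753, 974, 242, 101 and 4083 in the same order of contrasts and classes, then 3944, 5177, 2947 against smoke extract and 7281. These counts are far above the others, and the cause was not tested.

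At an adjusted p under 0.01 the time difference was called for 1334 genes and the 2 h effect for 28, with 4 transient, 4 growing and 1248 late, 624 for nicotine, 764 for smoke extract, 50 against smoke extract and 598 against cisplatin. With a 1.5-fold minimum these were 941 and, at 24 h, 818, at 2 h, 21, then 2 transient, 13 sustained, 2 growing and 603 late. A further 538 were called outside the classes, and there were 482 for nicotine, 596 for smoke extract and 471 against cisplatin. One adjustment over the 3 contrasts gave 274 at 2 h, 109 transient, 55 sustained and 22 growing. The mean over 3 pretreatments gave 4303, 5992 at 24 h, 249 at 2 h, 86 transient, 65 sustained, 71 growing and 3887 late. Quantile normalization gave 1455 higher and 1311 lower time differences. The background covariate gave 1776 higher and 1553 lower, 116 at 2 h, 38 transient, 18 growing, 1932 with nicotine and 193 against smoke extract. Genes above the median level gave 28 transient and 159 against smoke extract. The 12 arrays alone gave 3110 genes for the time difference and 16 growing. All rows gave 2961 called outside the classes. The replicate block gave 2436 genes for the time difference; every count kept within 1.5 times of its main value there. No named gene's time difference changed direction past the threshold in any of these fits: 1822 of the values kept their side of it, 75 lost it and 35 gained it, and with an array left out 1562 kept it, 104 lost it and 2 gained it.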
